A study of Mus musculus with 32 samples.

Results

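Klf2, Klf4 and Klf5 are 3 of the 51826 genes in the count table, and their rows were found by gene symbol, across all 11 conditions. The choice of these genes was made with earlier results of these data known. Total RNA was sequenced from mouse embryonic stem cells of the Rex1-GFPd2 line (RGd2, which carries a green fluorescent reporter of the naive state at Rex1) and from deletion mutants made in it, 32 libraries in all. RGd2 cells were cultured in 2i, which combines CHIR99021 (CH, a GSK3 inhibitor) with the MEK inhibitor PD0325901, in 2i for 5 passages (2i-p5), in CH alone for 2 passages (CHp2), or in N2B27 basal medium without inhibitors for 16 h (N16h) or 72 h (N72h). Mutants of the genotypes RGd2-Etv5 KO (Etv5-KO) and RGd2-RbpJ KO (Rbpj-KO) were sequenced in 2i and at N16h. The Etv5 and RbpJ double mutant (ER-dKO) was sequenced after 5 passages in CH (CHp5), and the Etv5, Tcf3 and RbpJ triple mutant (ETR-tKO) after 5 passages in N2B27 (Np5). The mutants carry the same reporter as RGd2, and the cells sequenced in 2i and at N16h had been expanded in CH with LIF and moved into 2i first. There are 2 libraries of Etv5-KO at N16h and 3 of every other condition by the labels, which were followed here. The study's methods instead name RGd2 as the genotype short of a library at that time, which bears on every value of either genotype at N16h. In RGd2, 2 libraries of each condition came from the parental line and 1 from a clonal line, and in the mutants the libraries within a condition came from different clones, so the spread is that between cultures and clones. Etv5-KO clones c17 and c1 and all 3 Rbpj-KO clones were sequenced both in 2i and at N16h, and ETR-tKO replicates 14 and 15 derive from the same Tcf3 mutant line.

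Libraries held between 5986857 and 71439411 counts on genes, and counts were scaled by the spike-in transcripts added to each library. The normalized count of Etv5 fell from 15475 in RGd2 2i to 2241 in Etv5-KO 2i, and that of Rbpj from 4469 to 1097 in Rbpj-KO 2i. In ER-dKO, Rbpj had normalized counts of 1138, 1307 and 3489 in replicates 10, 11 and 12, against 2830 to 3385 in RGd2 2i-p5, so the library labelled ER-dKO replicate 12 was not lower. Counts per gene include exons outside the deleted parts, so they check the labels only in part, and log2 fold changes that involve ER-dKO are given with and without replicate 12. The pluripotency factor Pou5f1 had a mean FPKM between 271.8 and 554.8 in every condition (FPKM, fragments counted per kilobase of exon and scaled to the library's total on genes). The summed FPKM of 7 primitive endoderm markers reached 15.9 in RGd2 N72h and 10.3 in Rbpj-KO at N16h. For 5 neural markers the sum was 77.9 to 93.4 in RGd2 N72h, but also 48.4 to 57.7 in RGd2 2i and 67.9 to 71.0 in ETR-tKO. Among 5 mesendoderm markers the sum was 69.9 to 73.6 in RGd2 CHp2, among 6 trophectoderm markers it reached 17.5 in Rbpj-KO 2i, and among 5 fibroblast markers 6.79 in RGd2 N72h. The part of these marker genes in the results on Klf2, Klf4 and Klf5 was not tested. Comparisons used edgeR's quasi-likelihood test (edgeR QL, two-sided), a model of count data fitted to all 32 libraries, with p-values adjusted by Benjamini-Hochberg over 18892 genes. Calls needed an adjusted p below 0.05 together with an average FPKM that reached 1 in either condition. Each log2 fold change is given with its standard error (SE).

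Klf2, Klf4 and Klf5 encode Kruppel-like factors, transcription factors with zinc fingers that bind GC-rich and CACCC-type DNA. They act beside Nanog, Esrrb and Tfcp2l1 in the transcription factor network of naive pluripotency, and each can support self-renewal of embryonic stem cells when supplied in excess. Klf4 is a target of the LIF and STAT3 pathway and a reprogramming factor, KLF2 protein is stabilised when MEK is inhibited, and Klf5 is needed in the early embryo. TCF3 (gene Tcf7l1) is a repressor downstream of GSK3, ETV5 is an ETS factor downstream of FGF and ERK, and RBPJ is the DNA-binding partner of Notch.

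In the deposited gene models (GRCm38), Klf2 (ENSMUSG00000055148.7) lies on chromosome 8 from 72319033 to 72321656 on the + strand, with 3 exon intervals that add up to 1847 bases. Klf4 (ENSMUSG00000003032.8) lies on chromosome 4 from 55527143 to 55532466 on the − strand, with 5 intervals and 3049 bases. Klf5 (ENSMUSG00000005148.7) lies on chromosome 14 from 99298691 to 99313405 on the + strand, with 4 intervals and 1721 bases. The 250 bases before the RefSeq transcription start of Klf2 (chr8:72318812-72319061, GRCm38.p6, + strand) and Klf4 (chr4:55532476-55532725, − strand) are given 5′ to 3′. In every comparison within RGd2 all 3 genes were called in the same direction. Klf5 is left out here only because no window was available for it. Capitals mark GGGCGG, the GC box bound by SP and KLF factors, in either orientation.
Klf2: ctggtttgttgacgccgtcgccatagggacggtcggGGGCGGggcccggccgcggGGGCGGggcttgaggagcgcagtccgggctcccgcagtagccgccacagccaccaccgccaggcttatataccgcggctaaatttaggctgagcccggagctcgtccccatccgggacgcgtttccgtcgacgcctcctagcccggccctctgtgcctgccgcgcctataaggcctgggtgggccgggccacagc
Klf4: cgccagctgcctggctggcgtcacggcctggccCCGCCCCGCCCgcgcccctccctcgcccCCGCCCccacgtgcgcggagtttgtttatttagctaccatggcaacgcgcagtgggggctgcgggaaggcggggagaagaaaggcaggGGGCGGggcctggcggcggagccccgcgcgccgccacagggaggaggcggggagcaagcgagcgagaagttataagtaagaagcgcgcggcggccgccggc
Both windows were rich in G and C, with 71.2% in Klf2 and 74.0% in Klf4 against a median of 52.4% over 32851 RefSeq windows of the same length. The motif GGGCGG, which was added to the search after the sequences had been read, was in 32.7% of all windows. Other motifs were searched on both strands, and shorter forms of them were not. They were CCGGAA (an ETS site, in 12.03% of windows), TGGGAA (RBPJ core, 21.6%) and CTTTGA (TCF and LEF core, 13.8%). The search also took in TTCNNNGAA (STAT, 7.02%) and GGGTGTGG (a CACCC box for KLF factors, 3.2%). None of these 5 was found in the Klf2 or Klf4 window, which says only that these letters are not in these 250 bases. The promoter table used here gave a window for 2 of the 3 genes, without Klf5.

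Per length, Klf2 was the most abundant of the 3 in 2i and Klf5 the most abundant after withdrawal. Mean FPKM in RGd2 was 60.7 ± 43.9 (SD, n = 3) for Klf2 in 2i, 45.6 ± 1.30 in 2i-p5, 18.7 ± 1.31 in CHp2, 11.01 ± 1.85 at N16h and 3.15 ± 0.125 at N72h. Klf4 had a mean FPKM of 16.0 ± 2.44 in 2i, 12.4 ± 1.82 in 2i-p5, 4.85 ± 0.606 in CHp2, 6.99 ± 0.288 at N16h and 0.877 ± 0.0614 at N72h (SD, n = 3). The FPKM of Klf5 in RGd2 was 26.9 ± 1.67 in 2i, 23.5 ± 1.82 in 2i-p5, 15.03 ± 3.24 in CHp2, 23.5 ± 1.06 at N16h and 7.52 ± 1.09 at N72h (SD, n = 3). All 3 genes were lowest at N72h, but their highest conditions were different: RGd2 2i for Klf2 by the mean, ER-dKO for Klf4 (FPKM of 40.5 ± 1.03, SD, n = 3) and Etv5-KO at N16h for Klf5 (46.4 ± 1.01, SD, n = 2). The first place of RGd2 2i for Klf2 rests on replicate 33 (FPKM of 111). The other RGd2 2i libraries had a mean FPKM of 35.4, below those of 2i-p5 (45.6), Rbpj-KO 2i (43.7), Etv5-KO 2i (43.1) and ETR-tKO (37.5). In the order of normalized counts, the 5 highest conditions of Klf2 (RGd2 2i, Rbpj-KO 2i, Etv5-KO 2i, RGd2 2i-p5 and ETR-tKO) overlapped from each to the next, and below them every condition was apart from its neighbour. For Klf4, ETR-tKO overlapped Rbpj-KO 2i, Etv5-KO 2i overlapped RGd2 2i, and Rbpj-KO N16h overlapped RGd2 2i-p5, while the other neighbours were apart. For Klf5, Etv5-KO N16h stood above all other conditions and N72h below them, RGd2 2i was apart from Rbpj-KO 2i, and the other neighbours overlapped.

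**Figure D1:**
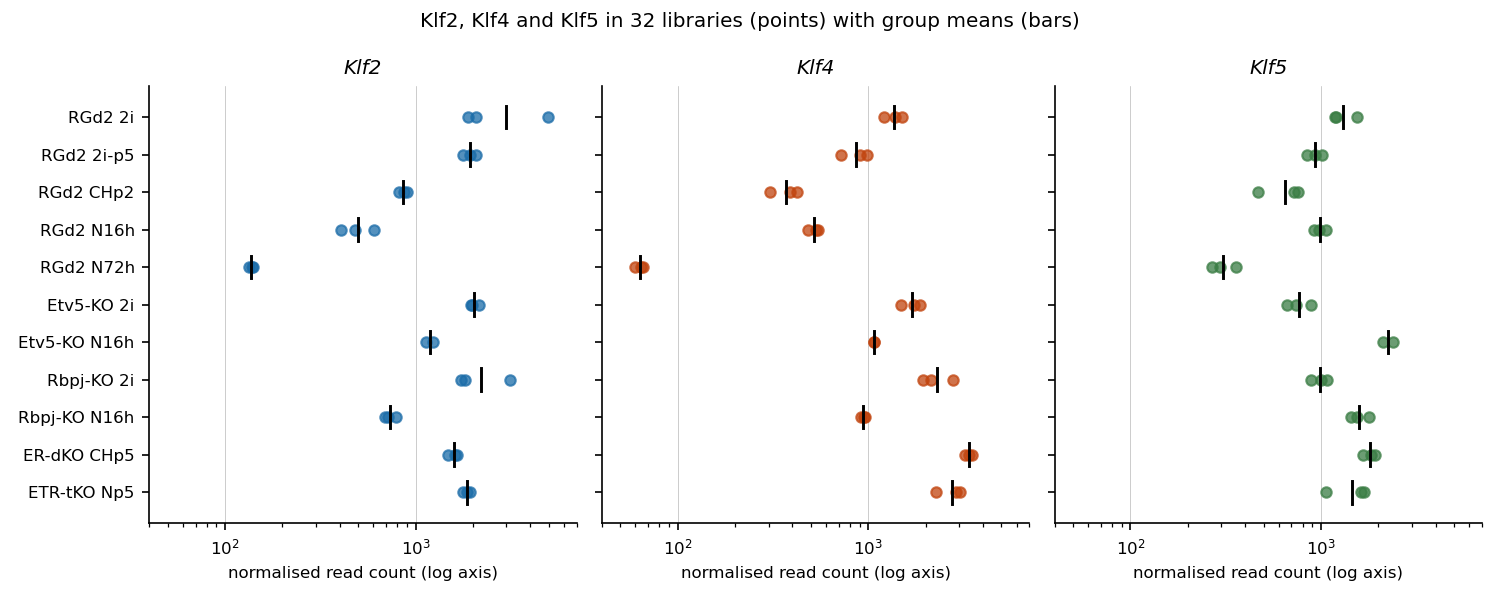
Normalised read count (log axis) of Klf2, Klf4 and Klf5 in each of the 32 libraries (points) by condition, with the mean of each condition as a bar. N72h is lowest in all 3 panels, ER-dKO is highest for Klf4 and Etv5-KO N16h for Klf5, and 1 library of RGd2 2i stands apart at 4970 for Klf2.

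A pair of 2i libraries stood apart for Klf2. Both were shallow, as were libraries of other conditions that did not stand apart. RGd2 2i replicate 33, from the clonal line, had 5986857 counts on genes, 1231 of them on Klf2, and its normalized Klf2 count was 2.51-fold the mean of the other RGd2 2i libraries, whereas Klf4 was 1.02-fold and Klf5 0.868-fold. Rbpj-KO 2i replicate 28 had 13394552 counts, and its Klf2 was 1.76-fold, Klf4 1.36-fold and Klf5 1.15-fold the mean of the other Rbpj-KO 2i libraries. Of 4442 genes with an FPKM of 10 or more, 35 (0.788%) were raised as much as Klf2 in the first library and 32 (0.72%) in the second. RGd2 2i-p5 replicate 1 (9255795 counts) and CHp2 replicates 4 (12588312) and 6 (12876193) were shallower than Rbpj-KO 2i replicate 28. Their normalized Klf2 counts were 1783.9, 865.8 and 818.3, beside means of 1930.6 in 2i-p5 and 862.2 in CHp2. Whether depth has a part in the Klf2 values of the pair was not tested. The comparisons of Klf2 in 2i are given below with and without the pair where the value or the call moved.

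After removal of 2i the 3 genes were lower in RGd2, and by different amounts at N16h and N72h. The earlier expansion in CH with LIF is stated above for the 2i and N16h cells only. Whether the culture before N72h has a part in the N72h values was not tested. The normalized counts of Klf2 were 2069.8, 1886.1 and 4970.4 in 2i, 602.0, 483.6 and 406.2 at N16h, and 133.8, 139.0 and 139.5 at N72h. Klf4 had normalized counts of 1509.1, 1207.0 and 1389.0 in 2i, 547.3, 533.3 and 479.9 at N16h, and 64.3, 65.6 and 59.7 at N72h. Klf5 had normalized counts of 1538.7, 1195.5 and 1187.1 in 2i and 1066.5, 973.5 and 919.9 at N16h, a small step, and then 267.5, 293.6 and 358.2 at N72h. All 3 genes stepped down at each time without any overlap of libraries. So did 33.1% of all genes from 2i to N16h and 35.1% from N16h to N72h. The share of genes that did so at both steps was not counted. At N16h Klf2 was 5.85-fold lower than in 2i (log2 fold change −2.55, SE 0.21, adjusted p = 9.01e-13 by edgeR QL). Without RGd2 2i replicate 33, the log2 fold change of Klf2 was −1.99. Klf4 was 2.62-fold lower at N16h (log2 fold change −1.39, SE 0.13, adjusted p = 3.08e-11 by edgeR QL). For Klf5 the log2 fold change was −0.41 (SE 0.15, adjusted p = 0.0308 by edgeR QL), beside a median of −0.23 over all genes. With TMM normalization, which centres the genes on each other and not on the spike-ins, the log2 fold change of Klf5 at N16h was −0.18 and not called. It was also not called without RGd2 2i replicate 31 (−0.27), N16h replicate 23 (−0.40) or N16h replicate 24 (−0.37). All 3 members were thus called lower at N16h against a background of 37.4% of 11748 genes (23.7% with TMM). In bulk RNA, fewer cells expressing a gene and less RNA per cell cannot be told apart.

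Between N16h and N72h, with the same limit on the culture before N72h, the order changed and Klf4 fell the most. Klf4 was 8.30-fold lower at N72h than at N16h (log2 fold change −3.05, SE 0.16), Klf2 3.62-fold lower (−1.86, SE 0.23) and Klf5 3.20-fold lower (−1.68, SE 0.16). All 3 were called lower, with adjusted p of 1.42e-11 or less for Klf4 and Klf5 and 7.22e-09 for Klf2 by edgeR QL, against 29.6% of genes. Over the whole interval from 2i to N72h, the log2 fold changes were −4.41 for Klf2, −4.44 for Klf4 and −2.09 for Klf5, where 44.6% of genes were called lower (34.1% with TMM). Klf2 and Klf4 were 21.2-fold and 21.8-fold lower at N72h, and Klf5 4.26-fold lower. Without RGd2 2i replicate 33, the log2 fold change of Klf2 from 2i to N72h was −3.85, a smaller fall than that of Klf4. Measured against 2i-p5 the values were −3.81, −3.78 and −1.58, where 22.9% of genes were called lower (33.2% with TMM). At N72h the 3 Klf4 libraries held 62, 42 and 98 raw counts, an FPKM under 1 in each, so Klf4 was low but detected.

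Cells kept in CH without the MEK inhibitor held intermediate levels. In CHp2 the normalized counts were 865.8, 902.5 and 818.3 for Klf2, 423.3, 386.8 and 304.5 for Klf4, and 757.3, 726.0 and 469.0 for Klf5. In 2i-p5 they were 1783.9, 2082.5 and 1925.3 for Klf2, 900.2, 979.5 and 717.5 for Klf4, and 928.5, 1009.7 and 841.9 for Klf5. Every CHp2 library was below every 2i-p5 library for all 3 genes, as for 18.0% of all genes. Klf2 was 2.24-fold lower in CHp2 (log2 fold change −1.16, SE 0.21, adjusted p = 1.66e-05 by edgeR QL) and Klf4 2.32-fold lower (−1.22, SE 0.14, adjusted p = 3.21e-09 by edgeR QL). Klf5 was 1.42-fold lower (−0.51, SE 0.16, adjusted p = 0.0106 by edgeR QL). The call on Klf5 was lost without 2i-p5 replicate 2 (−0.44) or CHp2 replicate 6 (−0.32). Against these 3 calls, 13.6% of all genes were called lower in CHp2 (28.7% with TMM). The passage number also differs between these cultures, and its part cannot be told apart from that of the inhibitor.

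Compared with N72h, where neither inhibitor was present, CHp2 cells had more of each gene. The log2 difference was 2.65 (SE 0.23) for Klf2, 2.57 (SE 0.17) for Klf4 and 1.08 (SE 0.17) for Klf5, and 19.9% of genes were called higher. The 3 genes had 6.27-fold, 5.92-fold and 2.11-fold more transcript in CHp2 than at N72h, and no libraries overlapped, as for 27.4% of all genes. Time in culture and passaging also differ between these cultures, and their part cannot be told apart from that of CH. The summed FPKM of the 5 mesendoderm markers was 69.9 to 73.6 in CHp2 and 0.671 to 0.959 at N72h. In RGd2 cultures lacking the MEK inhibitor, the summed FPKM of 10 transcripts that report ERK activity, such as the feedback inhibitors Spry4 and Dusp6, was at least 109.5, against 20.8 or less in RGd2 2i and 2i-p5. The mean normalized count of Klf4 was 371.5 in CHp2 and 520.1 at N16h, and that of Klf2 862.2 and 497.3. CHp2 and N16h were not compared by a test or against all genes.

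The RGd2 cultures in 2i and 2i-p5 also differed, by less. In 2i-p5 the log2 fold change against 2i was −0.66 for Klf4 (SE 0.13, adjusted p = 1.86e-04 by edgeR QL), −0.59 for Klf2 and −0.50 for Klf5, beside a median of −0.35 over all genes. All 3 were called lower, as were 49.4% of genes (12.6% with TMM). The Klf2 value was −0.03 without RGd2 2i replicate 33, and its call was also lost without 2i-p5 replicate 1 (−0.55) or replicate 3 (−0.59). The call on Klf5 was lost without 2i replicate 31 (−0.35) or 2i-p5 replicate 3 (−0.44). With TMM, Klf2 (−0.30) and Klf5 (−0.17) were not called and Klf4 was.

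In 2i, loss of Etv5 gave lower Klf5. Normalized counts of Klf5 were 888.2, 738.8 and 662.2 in Etv5-KO, below all 3 RGd2 libraries (as for 21.5% of all genes), and the gene was 1.72-fold lower (log2 fold change −0.78, SE 0.15, adjusted p = 1.49e-04 by edgeR QL). Klf2 had normalized counts of 2143.6, 1970.8 and 1949.9 in Etv5-KO, which lie among the RGd2 libraries. Its log2 fold change of −0.53 (adjusted p = 0.0439 by edgeR QL) was 0.03 without RGd2 2i replicate 33, so that the call and its direction rest on that library. The Klf2 call was also lost without Etv5-KO replicate 25 (−0.57), 26 (−0.52) or 27 (−0.51). Klf4 had normalized counts of 1866.3, 1731.0 and 1482.0, with a log2 fold change of 0.31 (SE 0.13, 95% interval 0.05 to 0.57, adjusted p = 0.0688 by edgeR QL). Klf4 was called higher without RGd2 2i replicate 31 (0.40) or Etv5-KO replicate 27 (0.39), and with TMM (0.54). In this comparison 6.14% of genes were called higher and 27.9% lower (19.9% and 12.9% with TMM).

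At N16h all 3 genes were higher in Etv5-KO. Klf2 had normalized counts of 1140.4 and 1233.1 in the Etv5-KO libraries, Klf4 1077.1 and 1076.1, and Klf5 2107.6 and 2378.2. Each of these was above every RGd2 library at N16h, as were 56.9% of all genes. Klf2 was 2.38-fold higher (log2 fold change 1.25, SE 0.22, adjusted p = 3.83e-05 by edgeR QL). Klf4 was 2.07-fold higher (1.05, SE 0.14) and Klf5 2.27-fold higher (1.18, SE 0.17), with adjusted p of 3.67e-07 and 5.76e-07 by edgeR QL. Among all genes, 29.3% were called higher (15.9% with TMM) and the median was 0.23. The 3 calls were kept with each library left out in turn, including either Etv5-KO library, where the lone library is assumed to vary like the other groups.

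Loss of Rbpj in 2i gave higher Klf4. The normalized counts of Klf4 were 2775.4, 1936.9 and 2146.0 in Rbpj-KO, all above the RGd2 libraries (as for 7.92% of all genes), and the gene was 1.67-fold higher (log2 fold change 0.74, SE 0.13, adjusted p = 7.37e-05 by edgeR QL). Klf4 was still called without Rbpj-KO replicate 28, at 0.58. Klf2 had normalized counts of 3112.0, 1724.7 and 1808.1, and its log2 fold change of −0.41 (95% interval −0.81 to 0.0012, adjusted p = 0.235 by edgeR QL) was not called. The direction of Klf2 turned without RGd2 2i replicate 33 (0.15), and Klf2 was called lower without RGd2 2i replicate 32 (−0.66) or Rbpj-KO replicate 28 (−0.72). Klf5 had normalized counts of 1081.5, 889.2 and 999.4, with a log2 fold change of −0.41 (95% interval −0.73 to −0.10, adjusted p = 0.0882 by edgeR QL), and it was called without RGd2 2i replicate 33 (−0.47). The share of all genes called was 11.4%, with 5.24% higher (10.8% with TMM).

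At N16h Klf4 and Klf5 were higher in Rbpj-KO than in RGd2. The normalized counts in Rbpj-KO were 785.7, 716.0 and 689.2 for Klf2, 945.4, 919.6 and 965.7 for Klf4, and 1438.5, 1541.3 and 1793.8 for Klf5. All lie above the RGd2 libraries at N16h, as for 40.7% of all genes. Klf4 was 1.81-fold higher (log2 fold change 0.86, SE 0.13, adjusted p = 4.23e-06 by edgeR QL) and Klf5 1.61-fold higher (0.69, SE 0.15, adjusted p = 8.57e-04 by edgeR QL). For Klf2 the log2 fold change was 0.55 (SE 0.21, 95% interval 0.13 to 0.97, adjusted p = 0.0605 by edgeR QL), and it was called without RGd2 N16h replicate 22 (0.70). In this comparison 18.8% of genes were called higher (13.7% with TMM).

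Set against each other, the single mutants differed at N16h in Klf2 and Klf5. Klf2 was 1.62-fold higher in Etv5-KO than in Rbpj-KO at N16h (log2 difference 0.70, SE 0.23, adjusted p = 0.0300 by edgeR QL). Klf5 was 1.41-fold higher (0.50, SE 0.17, adjusted p = 0.0382 by edgeR QL), and Klf4 differed by 0.19 (95% interval −0.10 to 0.48, not called). The share of all genes called higher was 12.4% (13.5% with TMM). The call on Klf2 was lost without any 1 of the 5 libraries: Etv5-KO replicate 17 (0.75) or 18 (0.64), or Rbpj-KO replicate 19 (0.75), 20 (0.68) or 21 (0.66). The call on Klf5 was lost without Etv5-KO replicate 17 (0.58) or 18 (0.41), or Rbpj-KO replicate 19 (0.43) or 20 (0.47). In 2i, Klf4 was 1.35-fold lower in Etv5-KO than in Rbpj-KO (−0.43, SE 0.13, adjusted p = 0.0122 by edgeR QL), a call that was lost without Etv5-KO replicate 27 (−0.35) or Rbpj-KO replicate 28 (−0.27), and with TMM (−0.25). Klf2 differed by −0.12 in 2i (95% interval −0.53 to 0.28), which turned to 0.19 without Rbpj-KO replicate 28, and Klf5 by −0.37 (95% interval −0.68 to −0.06). Neither was called, although Klf5 was without Etv5-KO replicate 25 (−0.49), where 20.8% of genes were called lower (13.2% with TMM).

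**Figure D2:**
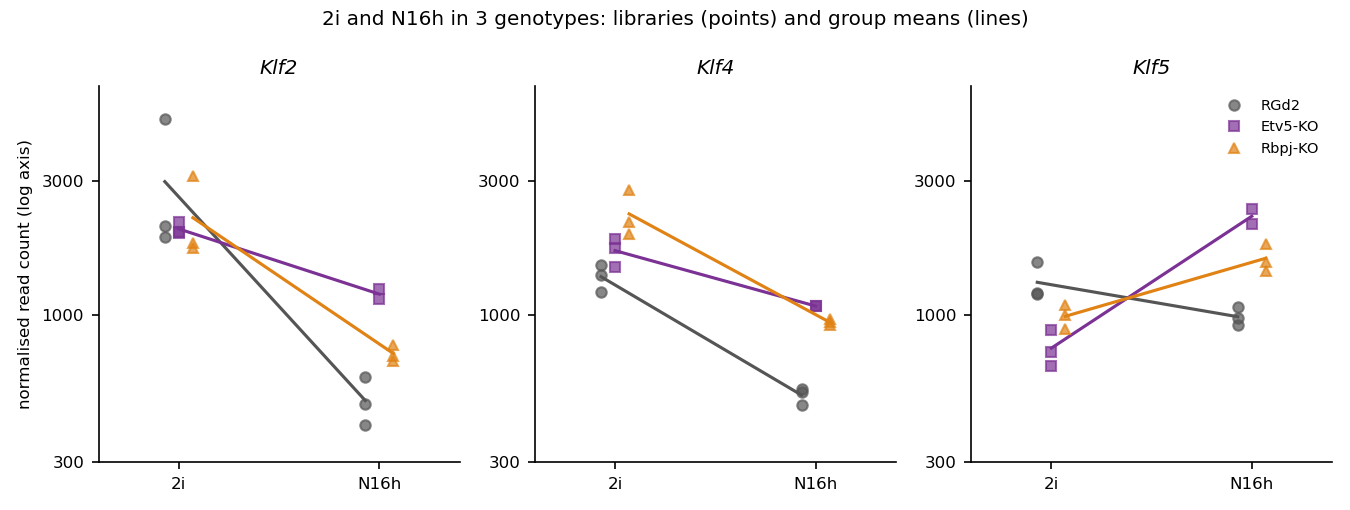
Normalised read count (log axis) of Klf2, Klf4 and Klf5 in 2i and at N16h in RGd2, Etv5-KO and Rbpj-KO, with libraries as points and lines joining the means. Klf2 and Klf4 go down in all 3 genotypes, while Klf5 goes down in RGd2 from a mean of 1307 to 987 and up in Etv5-KO from 763 to 2243 and in Rbpj-KO from 990 to 1591.

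Within each mutant, Klf2 and Klf4 fell on withdrawal of 2i and Klf5 rose. In Etv5-KO the log2 fold change from 2i to N16h was −0.77 for Klf2 (SE 0.23, adjusted p = 0.00731 by edgeR QL) and −0.65 for Klf4 (SE 0.14, adjusted p = 4.06e-04 by edgeR QL). Klf5 rose 2.94-fold in Etv5-KO (log2 fold change 1.56, SE 0.17, adjusted p = 5.56e-10 by edgeR QL). The call on Klf2 was lost without Etv5-KO N16h replicate 17 (−0.72). Among all genes 31.3% were called higher and 9.47% lower (19.3% and 25.0% with TMM). In Rbpj-KO the values were −1.59 for Klf2 (SE 0.21), −1.27 for Klf4 (SE 0.13) and 0.69 for Klf5 (SE 0.15, adjusted p = 6.79e-04 by edgeR QL), with 16.3% of genes called lower and 11.6% higher. Without Rbpj-KO 2i replicate 28, the value for Klf2 was −1.28 and still called. In RGd2 the same step had gone down for Klf5 too.

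The difference of the responses themselves was tested as the N16h change in a mutant minus that in RGd2. For Etv5-KO it was 1.78 for Klf2 (SE 0.30, adjusted p = 2.61e-05 by edgeR QL), 0.74 for Klf4 (SE 0.19, adjusted p = 0.00432 by edgeR QL) and 1.97 for Klf5 (SE 0.23, adjusted p = 2.09e-08 by edgeR QL). The median over all genes was 0.44, and 36.7% of genes were called higher (7.78% with TMM), so the values relative to that median were 1.35, 0.30 and 1.53. Without RGd2 2i replicate 33 the difference for Klf2 was 1.22 and still called. With TMM the difference for Klf4 was 0.27 and not called, while Klf2 and Klf5 were called. For Rbpj-KO the difference was 1.10 for Klf5 (SE 0.22, adjusted p = 0.00156 by edgeR QL), 0.96 for Klf2 (95% interval 0.37 to 1.54, adjusted p = 0.0598 by edgeR QL) and 0.12 for Klf4 (95% interval −0.25 to 0.49, adjusted p = 0.783 by edgeR QL). Only Klf5 passed, where 3.79% of genes were called higher (2.29% with TMM). With TMM the value for Klf4 turned to −0.09. With the clonal line as a replicate block, Klf2 was called in Rbpj-KO too (0.94, adjusted p = 0.0358 by the blocked edgeR QL fit). Klf2 was likewise called without RGd2 2i replicate 31 (1.16) or 32 (1.205), without Rbpj-KO 2i replicate 28 (1.27), and without replicate 22 of RGd2 at N16h (1.11). Without RGd2 2i replicate 33 it was 0.40 and not called. The comparisons of both mutants share the RGd2 libraries.

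Klf4 was highest in the combined mutants, which grew without the MEK inhibitor. In ER-dKO, cultured in CH, the normalized counts were 1487.3, 1617.3 and 1642.6 for Klf2, 3392.8, 3209.9 and 3501.4 for Klf4, and 1916.9, 1654.7 and 1836.9 for Klf5. In ETR-tKO, cultured in N2B27, they were 1939.3, 1763.6 and 1860.3 for Klf2, 2275.5, 3033.9 and 2900.0 for Klf4, and 1063.4, 1683.0 and 1631.1 for Klf5. By these counts, Klf4 and Klf5 were above every RGd2 2i-p5 library in all 6. By FPKM, Klf5 in ETR-tKO replicate 13 (24.5) was below that in 2i-p5 replicate 1 (24.7). Against 2i-p5, 51.3% of all genes lay above in every ER-dKO library and 45.9% in every ETR-tKO library. Genotype and medium both differ from RGd2 2i-p5, so their effects cannot be told apart there.

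Against RGd2 2i-p5, Klf4 was 3.90-fold higher in ER-dKO (log2 fold change 1.96, SE 0.13, adjusted p = 4.60e-15 by edgeR QL, 1.93 without replicate 12). Klf5 was 1.95-fold higher in ER-dKO (0.96, SE 0.15, adjusted p = 4.32e-06 by edgeR QL, 0.94 without replicate 12). Klf2 was not called (−0.29, 95% interval −0.69 to 0.12, −0.32 without replicate 12). In this comparison 33.9% of genes were called higher (24.7% with TMM). In ETR-tKO Klf4 was 3.17-fold higher (1.66, SE 0.13, adjusted p = 2.70e-13 by edgeR QL) and Klf5 1.57-fold higher (0.65, SE 0.15, adjusted p = 7.63e-04 by edgeR QL). Klf2 differed by −0.06 (95% interval −0.46 to 0.35), and 37.7% of genes were called higher (25.4% with TMM).

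In the same CH medium, ER-dKO had more of all 3 genes than RGd2. Klf4 was 9.06-fold higher than in RGd2 CHp2 (log2 fold change 3.18, SE 0.14, adjusted p = 8.93e-21 by edgeR QL), Klf5 2.77-fold higher (1.47, SE 0.16) and Klf2 1.83-fold higher (0.87, SE 0.21, adjusted p = 5.39e-04 by edgeR QL). Without ER-dKO replicate 12 the values were 3.15, 1.45 and 0.84. Among all genes 28.3% were called higher. The RGd2 cells had been passaged 2 times in CH and the ER-dKO cells 5 times, which cannot be told apart from the genotype.

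ETR-tKO cells, which had been passaged in N2B27 without inhibitors, were far from RGd2 cells in N2B27 for 72 h. Klf4 was 43.6-fold higher than at N72h (log2 fold change 5.45, SE 0.17), Klf2 13.5-fold higher (3.75, SE 0.24) and Klf5 4.72-fold higher (2.24, SE 0.16). The adjusted p was 1.35e-26, 7.05e-17 and 5.63e-15 in that order by edgeR QL, where 35.5% of genes were called higher. Compared with RGd2 at N16h, Klf4 was 5.25-fold, Klf2 3.72-fold and Klf5 1.48-fold higher, where 31.0% of genes were called higher (28.9% with TMM). In both comparisons genotype differs together with time in N2B27 and passaging, and their parts cannot be told apart. Between ETR-tKO and ER-dKO no member was called, where 24.5% of genes were. The Tcf3 genotype and the medium both differ between these mutants, and their parts cannot be told apart either. The log2 difference was −0.30 for Klf4 (95% interval −0.55 to −0.05), −0.31 for Klf5 (−0.61 to −0.0041) and 0.23 for Klf2 (−0.17 to 0.63). Without ER-dKO replicate 12 these were −0.27, −0.29 and 0.26, and not called. With TMM, Klf4 (−0.35) and Klf5 (−0.36) were called lower in ETR-tKO.

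**Figure D3:**
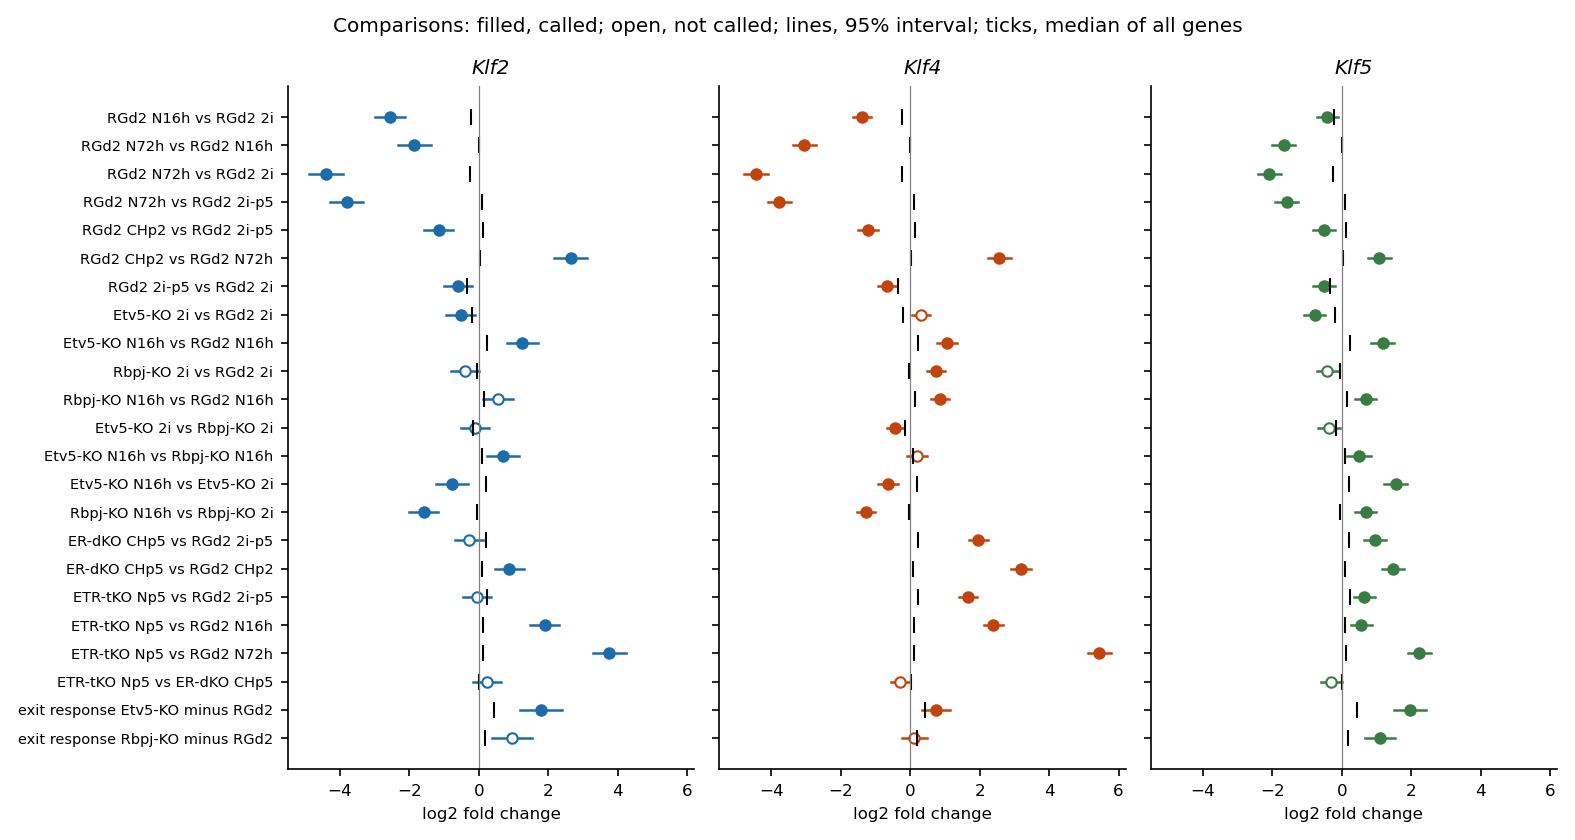
Log2 fold change of Klf2, Klf4 and Klf5 in the 21 pairwise comparisons, with the difference of 2 log2 fold changes in the last 2 lines. Lines are 95% intervals, filled points were called, open points were not, and black ticks mark the median of all genes. Of the 21 pairwise comparisons, Klf2 was called higher in 6 and lower in 9, Klf4 in 9 and 9, and Klf5 in 11 and 7.

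Within each library the balance of the 3 genes moved as well. As a share of their summed FPKM, Klf2 made up 54.4% in RGd2 2i (70.1% in replicate 33 and as low as 44.7% in the others), 56.0% in 2i-p5 and 48.7% in CHp2, but 26.4% at N16h and 27.4% at N72h. Klf5 made up 28.8% in 2i and 56.7% at N16h, with almost the same share at N16h in Etv5-KO (56.7%) and Rbpj-KO (56.6%). Klf4 took 7.66% at N72h and 36.7% in ER-dKO, its lowest and highest mean shares. In ER-dKO the 3 genes were close to even (28.5% Klf2, 36.7% Klf4 and 34.8% Klf5, and 28.6%, 37.0% and 34.4% in replicate 12), and ETR-tKO was similar (36.9%, 32.5% and 30.5%). The summed FPKM was 81.5 in RGd2 2i-p5, 110 in ER-dKO, 102 in ETR-tKO, 41.5 in RGd2 N16h, 81.9 in Etv5-KO N16h, 61.9 in Rbpj-KO N16h and 11.5 in RGd2 N72h. The log2 ratio of Klf5 to Klf4 was 0.75 ± 0.14 (SD, n = 3) in RGd2 2i, against −0.33 ± 0.08 in Etv5-KO 2i and −0.37 ± 0.14 in Rbpj-KO 2i, with no overlap. At N16h the same ratio was 1.75 ± 0.05 in RGd2, 1.88 ± 0.12 (SD, n = 2) in Etv5-KO and 1.57 ± 0.14 in Rbpj-KO. These ratios do not depend on the scaling between libraries, and they were described without a test because groups of 2 or 3 libraries are too few for one.

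**Figure D4:**
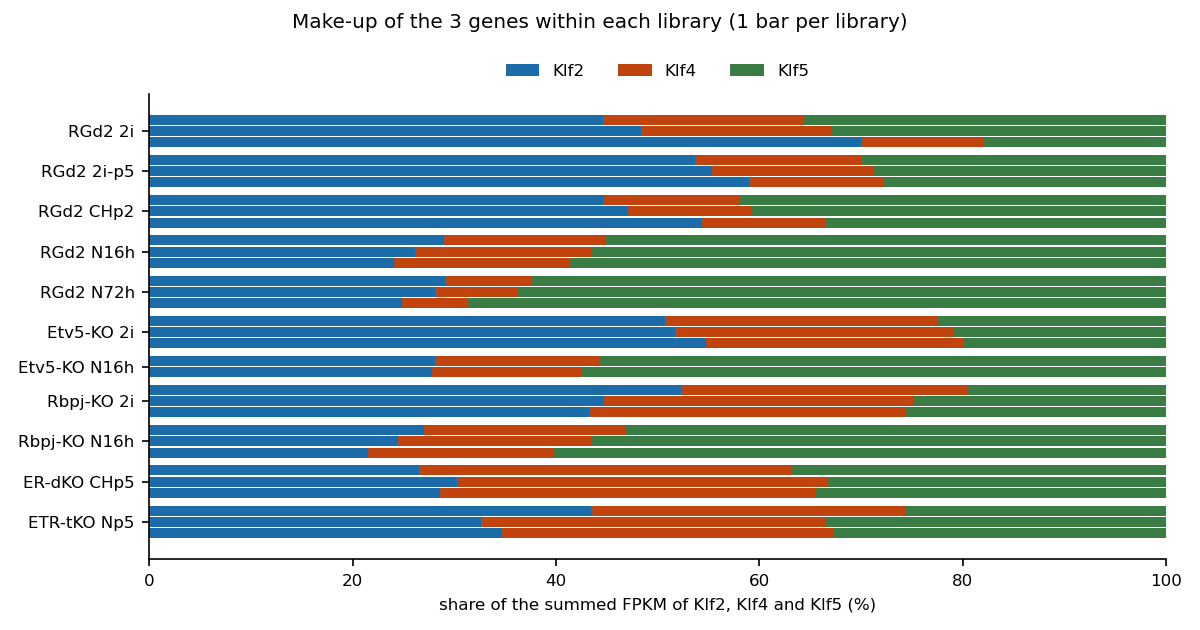
Share of Klf2, Klf4 and Klf5 in their summed FPKM (%), with 1 bar for each of the 32 libraries. Klf5 is the largest share in all N16h and N72h libraries, and Klf2 the largest in all 2i and CHp2 libraries.

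The other 14 genes of the Klf family moved in both directions. In RGd2 from 2i to N16h, 0 of the 11 that passed the FPKM minimum were called higher and 5 lower, with a median log2 fold change of −0.23, the median of all genes. Among all genes 8.63% were called higher and 37.4% lower (22.4% and 23.7% with TMM), so this count is near the background. Klf8 and Klf15 fell the most at N16h, by 1.88 and 1.92 on the log2 scale. From N16h to N72h, 5 were called higher and 4 lower, near the 31.3% and 29.6% of all genes. Klf6 (1.76) and Klf7 (2.07) rose between these times while Klf2, Klf4 and Klf5 fell. Klf6 had a mean FPKM of 11.1 at N16h and 38.4 at N72h, and Klf7 of 1.84 and 7.99. Klf8 had a mean FPKM of 10.6 in RGd2 2i, 3.38 at N16h, 2.87 in CHp2, 9.10 in ER-dKO and 7.98 in ETR-tKO, and it was called higher in Etv5-KO (1.32) and Rbpj-KO (0.76) at N16h. Klf1, Klf14 and Klf17 had mean FPKM of 0.411 or less in every condition.

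The 13 other naive factors on the list gave a wider frame. All list counts use the spike-in scaling and were not repeated with TMM. From 2i to N16h 10 were called lower and 2 higher, with a median of −1.44. In that comparison 37.4% of all genes were called lower and 8.63% higher (23.7% and 22.4% with TMM). Nanog (−2.48), Tfcp2l1 (−2.48) and Prdm14 (−2.83) fell about as far as Klf2 on the log2 scale, and Esrrb (−1.43) about as far as Klf4. Klf2, Klf4 and Klf5 thus fell beside most, but not all, of the listed naive factors. Of the 3 members, Klf5 fell the least (−0.41, and −0.18 and not called with TMM). At N16h, 11 of the 13 were called higher and 1 lower in Etv5-KO, where 29.3% of all genes were called higher and 3.24% lower (15.9% and 12.2% with TMM). In Rbpj-KO at N16h, 8 were called higher and 1 lower, where 18.8% and 3.41% of all genes were (13.7% and 11.5% with TMM). In CHp2 against 2i-p5, 10 were called lower and 1 higher with a median of −1.15, where 13.6% of all genes were called lower and 28.6% higher (28.7% and 22.2% with TMM). In ER-dKO against RGd2 CHp2, 10 were called higher and 2 lower with a median of 1.43, against 3.18 for Klf4, where 28.3% of all genes were called higher and 21.3% lower. In ETR-tKO against RGd2 N72h, 11 were called higher and 0 lower with a median of 4.15, where 35.5% of all genes were called higher and 23.6% lower. In these 5 comparisons and from 2i to N16h, most of the naive factors were called in the direction of Klf4. That was not so in ER-dKO against 2i-p5, where 4 were called higher and 4 lower (33.9% and 8.43% of all genes), or in Rbpj-KO 2i against RGd2, where 1 was called higher and 3 lower (5.24% and 6.12% of all genes), although Klf4 was called higher in both. The LIF and STAT3 pathway acts upstream of Klf4. Of its 5 listed genes that passed the FPKM minimum, 2 were called lower and 0 higher from 2i to N16h. That is near the 37.4% and 8.63% of all genes. Of the 8 ERK readouts with enough FPKM, 8 were called higher in RGd2 at N16h (8.63% of all genes). In CHp2 against 2i-p5, 8 of 8 were called higher (28.6% of all genes). Of 8 formative genes such as Fgf5 and Otx2, 8 were called higher at N16h (8.63% of all genes). In Etv5-KO against RGd2 at N16h, 7 were called lower (3.24% of all genes, 12.2% with TMM). Of the 6 Wnt readouts that passed the FPKM minimum, 5 were called lower at N16h and 1 higher (37.4% and 8.63% of all genes). Of 5 core pluripotency genes, 3 were called higher at N16h and 1 lower (8.63% and 37.4% of all genes).

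Over the 11 condition means, the genes most like each member were found by Pearson correlation of log2(FPKM + 0.1) among 13325 genes, as a description of points that share RGd2 cells and media. Klf2 was most like Pip5k1b (r = 0.981), Nodal (0.9752) and Ism2 (0.974). Nodal, a TGF-beta family ligand, had a mean FPKM of 43.9 in RGd2 2i, 25.0 at N16h, 8.32 at N72h and 32.6 in CHp2. Klf4 was most like Gsta3 (r = 0.971), Apod (0.955) and Nqo1 (0.954). Nqo1, a quinone reductase, had a mean FPKM of 44.4 in RGd2 2i, 8.36 at N72h, 83.4 in ER-dKO and 91.2 in ETR-tKO. Klf5 was most like Gm13148 (r = 0.953), Gm9320 (0.946) and Epb41l4a (0.945). Epb41l4a had a mean FPKM of 30.0 at N16h in RGd2, 45.6 in Etv5-KO N16h and 8.20 at N72h. Between the members, r was 0.865 for Klf2 and Klf4, 0.742 for Klf4 and Klf5, and 0.548 for Klf2 and Klf5, and Spearman's rho was 0.618, 0.482 and 0.0818 in the same order. By Spearman's rho, Pip5k1b for Klf2 and Gm9320 for Klf5 were again among the 3 most alike, and the other 7 were not.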

How the data were processed

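Strand-specific, ribosome-depleted total RNA libraries with ERCC spike-ins were sequenced in pairs. After trimming (Trim Galore) and TopHat2 alignment to GRCm38/mm10, guided by Gencode M14, the authors counted unique matches per gene and spike-in with featureCounts and deposited these raw counts for each library. From these, FPKM was computed from the deposited gene lengths. Size factors were medians of ratios over the 52 of 92 spike-ins above 0 in every library. No symbol was matched for 193 of 51826 gene IDs. edgeR 4.0.16 (R 4.3.3) fitted all 32 libraries, and glmQLFTest was tested on simulated data. The alternatives were TMM, gene median-of-ratios and total spike-in factors, DESeq2 1.42.0, other filters, fewer libraries, and clonal line as a replicate block. Same-line libraries deviated together only weakly (mean r 0.037 over 55 pairs), and the block rests on the labels, which name the line. Intervals and p-values cover the spread between these libraries only. The members and lists were chosen with earlier results of these data known. Genes named are the members, the targeted genes, genes of the lists, and the 3 genes most like each member.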

Additional observations from a re-analysis of the deposited data

Results flagged for a closer look

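The response to withdrawal of 2i differed between genotypes by the test of the difference itself (edgeR QL, the change from 2i to N16h in the mutant minus that in RGd2, on the log2 scale). In Etv5-KO the difference was 1.97 for Klf5, 1.78 for Klf2 and 0.74 for Klf4. Without RGd2 2i replicate 33 the value for Klf2 was 1.22. In Rbpj-KO it was 1.10 for Klf5. All 4 values rest on the same RGd2 libraries, and the Klf4 value was not called with TMM (0.27).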

How the results depend on the processing

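Of 69 member values (3 genes in 23 comparisons, log2 scale), 47 kept their direction and call under all alternatives run. All 69 did so without an FPKM minimum, but by construction, and that setting tested none of them. The only mean FPKM of a member below 1 was that of Klf4 at N72h (0.877). Every comparison with N72h set it against a condition above 1. The cause of the changes below was not tested.

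Against the spike-in scaling, TMM and gene median-of-ratios factors, in that order, gave values that changed a call as follows. In RGd2 N16h against 2i, Klf5 was −0.18 and −0.18. In 2i-p5 against 2i, Klf2 was −0.30 and −0.33, and Klf5 −0.17 and −0.17. In Etv5-KO 2i against RGd2, Klf2 was −0.335 and −0.40, and Klf4 0.54 and 0.50. In Rbpj-KO 2i, Klf5 was −0.35 and −0.37. Between Etv5-KO and Rbpj-KO, Klf2 in 2i turned to 0.071 and 0.047, Klf4 in 2i was −0.25 and −0.27, and Klf2 at N16h 0.61 and 0.61. In ETR-tKO against ER-dKO, Klf4 was −0.35 and −0.33, and Klf5 −0.36 and −0.34. The response difference of Klf4 was 0.27 and 0.31 in Etv5-KO, and turned to −0.087 and −0.061 in Rbpj-KO.

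Total spike-in factors called the response difference of Klf2 in Rbpj-KO (0.99). With no low-count filter, Klf2 (−0.41) and Klf5 (−0.41) in Rbpj-KO 2i, Klf2 in Rbpj-KO N16h (0.55), Klf5 between the single mutants in 2i (−0.37) and the response difference of Klf2 in Rbpj-KO (0.96) were called. DESeq2 lost Klf2 in Etv5-KO 2i (−0.55) and Klf2 between the single mutants at N16h (0.70). With only the libraries compared, the calls on Klf5 at N16h (−0.40), on Klf2 (−0.60) and Klf5 (−0.49) in 2i-p5 and on Klf2 in Etv5-KO 2i (−0.53) were lost. Calls were gained there for Klf2 in Rbpj-KO N16h (0.54), Klf5 between the single mutants in 2i (−0.37), Klf2 in ER-dKO against 2i-p5 (−0.27), and Klf2 (0.22) and Klf4 (−0.31) in ETR-tKO against ER-dKO. The replicate block by clonal line, fitted to 33 values, changed 1 call, the response difference of Klf2 in Rbpj-KO (0.94).

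Another setting, chosen after seeing the data, left out both 2i libraries with high Klf2. They were picked by their Klf2 values and not by depth, so the Klf2 values below follow in part from that choice. This gave −0.035 for Klf2 in 2i-p5, and 0.040 for Klf2 and 0.33 for Klf4 in Etv5-KO 2i. It gave −0.52 for Klf5 in Rbpj-KO 2i, and 0.19 for Klf2 and −0.28 for Klf4 between the single mutants in 2i. The response difference of Klf2 in Rbpj-KO was 0.69.

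With each library left out in turn, 399 of 438 values kept their call. The values with a change ranged for Klf5 at N16h from −0.48 to −0.27, for Klf5 in CHp2 against 2i-p5 from −0.62 to −0.32, and in 2i-p5 against 2i from −0.84 to −0.035 for Klf2 and −0.57 to −0.35 for Klf5. In Etv5-KO 2i they ranged from −0.78 to 0.031 for Klf2 and 0.22 to 0.40 for Klf4, and in Rbpj-KO 2i from −0.72 to 0.15 for Klf2 and −0.48 to −0.26 for Klf5. Klf2 in Rbpj-KO N16h ranged from 0.43 to 0.70. Between the single mutants in 2i the ranges were −0.28 to 0.19 for Klf2, −0.54 to −0.27 for Klf4 and −0.495 to −0.28 for Klf5, and at N16h 0.64 to 0.75 for Klf2 and 0.41 to 0.59 for Klf5. Klf2 from 2i to N16h in Etv5-KO ranged from −0.83 to −0.72, and the response difference of Klf2 in Rbpj-KO from 0.40 to 1.27.

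The number of genes called moved by over 1.5 times in 9 comparisons. With TMM and gene median-of-ratios factors it went from 6043 to 2953 and 3015 in 2i-p5 against 2i, from 1312 to 2080 and 2148 in Rbpj-KO 2i, and from 4564 to 1602 and 1615 for the response difference in Etv5-KO. With only the libraries compared it went from 5402 to 3080 in RGd2 N16h against 2i, 6043 to 2155 in 2i-p5 against 2i, 3937 to 1698 in Etv5-KO 2i, 1312 to 637 in Rbpj-KO 2i, 2121 to 3803 between the single mutants at N16h, and 4564 to 2257 and 490 to 217 for the response differences in Etv5-KO and Rbpj-KO. Without both 2i libraries with high Klf2 these became 7089 and 1033. Without RGd2 2i replicate 31 the counts were 3214 (2i-p5), 2595 (Etv5-KO 2i), 2726 and 237 (response differences), and without replicate 33 they were 2090 (Rbpj-KO 2i), 7222 and 1434. Without Etv5-KO N16h replicate 18 they were 1906 against 3817 (Etv5-KO N16h), 2940 against 4818 (Etv5-KO from 2i to N16h), 1008 (single mutants at N16h) and 2159 (response difference), and without replicate 17 the single mutants gave 1284. The Rbpj-KO response difference gave 321 without RGd2 N16h replicate 24 and 265 without Rbpj-KO 2i replicate 29. The lowest count behind any member value was 42 (Klf4 at N72h), where precision is least.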
